A study of Homo sapiens with 4 samples.

Results

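The genes described here encode the enzymes and membrane proteins of the lysosome, the proton pump that acidifies it, the transcription factors that control it, and the machinery of autophagy. They were chosen by name: every probe set whose platform annotation gives a single gene symbol, and that symbol is on a list of 36, was taken. All 36 genes were found among the 19775 genes measured, through 94 of 54613 probe sets. The list comprises 3 transcription factors, 5 membrane proteins and related cofactors, 13 hydrolases, 8 subunits or partners of the vacuolar ATPase (V-ATPase) and 7 autophagy genes.

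The cells were SH-SY5Y, an established human neuroblastoma line. Small interfering RNA against TSPAN8, which encodes the cell-surface protein tetraspanin 8, was applied with a self-delivering (Accell) system, and RNA was taken after 72 h from 2 knockdown and 2 transfection control samples, 1 array each. Knockdown and control cells shared the line, the serum-containing medium and the incubation time, and the labels do not say what the control cells received or whether the samples of a group were separate cultures. The p-values below thus cover only the variation among these 4 arrays, some or all of which may be technical.

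Lysosomes break down proteins, glycans and lipids with hydrolases that work at acid pH. The V-ATPase pumps protons into the organelle, with a V1 sector that splits ATP and a V0 sector that carries protons across the membrane. In autophagy a double membrane closes around cytoplasm and fuses with the lysosome. The transcription factors TFEB, TFE3 and MITF raise many of these genes when nutrients are short, and neurons depend on the pathway because they cannot dilute waste by dividing.

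TSPAN8 itself, on its only probe set, had log2 values of 6.25 and 6.35 in knockdown cells and 7.52 and 7.62 in control cells (limma, adjusted p = 0.0026), which left 41.5% of the control signal. Pearson's r between arrays over all probe sets, which are not independent replicates, lay between 0.997 and 0.998. Noradrenergic neuroblast markers, the type of this line, were bright: 11 of 13 measured lay above percentile 75 of all probe sets in control cells. Their mean was 10.85 and 10.87 (log2) in knockdown and 10.93 and 10.94 in control cells, and 10 of the 13 were below control. DBH (-0.35), CHGA (-0.29) and CHGB (-0.20), genes of catecholamine synthesis and secretory granules, were at an unadjusted p under 0.05 (limma). That was 23.1% of the 13, beside 7.96% of all genes, and 0 of the 13 passed (limma, adjusted p of at least 0.58). The 3 above control were NPY (0.123), TH (0.115) and STMN2 (0.0058). The highest probe set of DBH stood at 0.037. Macrophage markers, a cell type rich in lysosomes, lay below the median probe set for 9 of 10 genes, and 0 of 7 Schwann cell or melanocyte markers were above percentile 75. Markers of mesenchymal cells were also bright, with 11 of 16 above percentile 75 in control cells. Brightness was thus not particular to the noradrenergic list. The mesenchymal markers stood on the other side of control, with 14 of 16 higher, 2 lower and a median difference of 0.15. At an unadjusted p under 0.05 there were 3 (18.8%), all higher, beside 2.39% higher over all genes, and 0 passed (limma). The arrays did not overlap for 8 (50%), all higher, beside 14.3% higher over all genes. The mean of the list was 9.54 (log2) for knockdown replicate 1 and 9.30 for knockdown replicate 2. Both control arrays were lower, at 9.27 and 9.21. The part of either marker pattern in the results below was not tested, and in bulk RNA a change in cell numbers and a change in RNA per cell cannot be told apart.

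No gene of the 36 passed the test across the whole table. All differences below are knockdown minus control on the log2 scale, from limma, and adjusted p-values are those of Benjamini and Hochberg across all 54613 probe sets. Of the 94 probe sets, 0 passed at an adjusted p under 0.05 (the smallest was 0.60), where the share over the whole table was 0.00183%, TSPAN8 alone. At an unadjusted p under 0.05 there were 9 of 94 (9.57%), beside 7.83% of all probe sets: 4 were higher (3.72% of all) and 5 lower (4.12%). The groups' arrays did not overlap for 33 of 94 (35.1%), beside 37.5% of all probe sets, with knockdown higher for 15 (17.7% of all) and lower for 18 (19.8%). With 2 arrays a group, an exact permutation test of a single gene cannot give a p below 0.33, so limma's moderated test is the test reported.

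Where a gene had several probe sets, the one of highest average signal, called its brightest, stands for it below. By this measure 0 of the 36 genes passed, where 0.00506% of all genes did, and only MCOLN1 was at an unadjusted p under 0.05 (2.78% of the 36, beside 7.96% of all genes, 2.39% higher and 5.57% lower). Of the 36 genes, 22 (61.1%) were below control, beside 55.6% of all genes, and 14 above, with a median difference of -0.025 beside -0.0094 over all 19775 genes. The groups' arrays did not overlap for 16 of the 36 (44.4%), beside 38.5% of all genes: 11 were lower (24.2% of all genes were) and 5 higher (14.3%). These shares are near those of the array as a whole. No probe set of the 36 differed by as much as 0.3. At the brightest probe sets the 95% confidence intervals ran from -0.52 to 0.37 in all. Over all 94 probe sets they ran from -0.52 to 0.44, and larger shifts lay outside every interval. Relative to the control mean, knockdown replicate 1 had a median over the 36 genes of 0.0022, and for knockdown replicate 2 it was -0.039. Its sign thus rested on knockdown replicate 2, without which it was 0.0022.

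**Figure D1:**
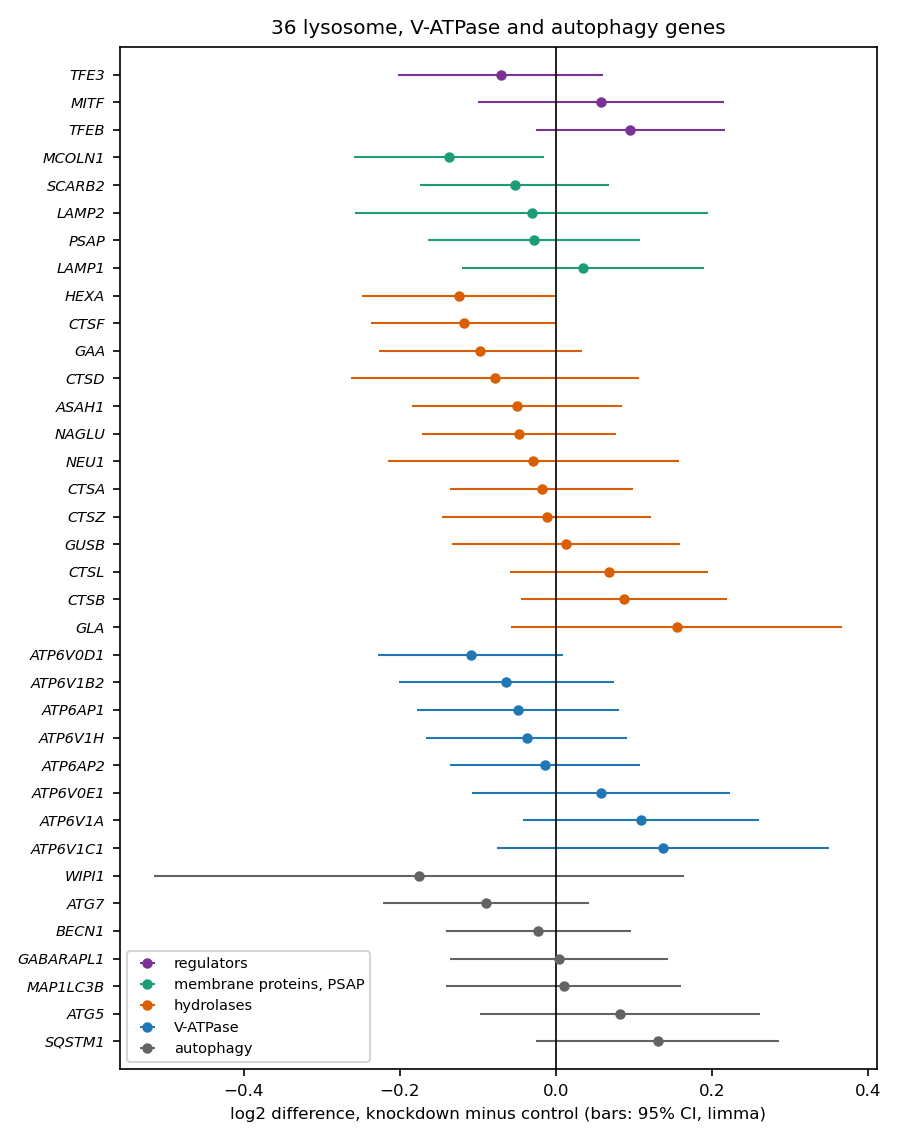
Log2 difference (knockdown minus control) of the 36 genes by class, each at its brightest probe set. Points are differences of means over 2 arrays a group and bars are 95% confidence intervals from limma. Only the interval of MCOLN1 (-0.26 to -0.015) leaves out 0, and the widest belongs to WIPI1 (-0.52 to 0.16).

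Among the regulators, TFEB, the main activator of lysosomal genes, had log2 values of 7.48 and 7.50 in knockdown and 7.37 and 7.42 in control cells. Both knockdown arrays were above both control arrays, with a difference of 0.095 ± 0.052 (SE; limma, adjusted p = 0.69), and the other probe set of TFEB differed by 0.0048. TFE3, its close relative, read 9.14 and 9.23 against 9.24 and 9.28. The knockdown arrays were the lower ones, at -0.071 ± 0.057 (SE; limma, adjusted p = 0.80), but the gene's 4 probe sets split evenly in sign, from -0.071 to 0.23. The highest of these was dim, with values of 5.98 and 6.17 against 5.89 and 5.80. MITF, best known for its role in pigment cells, read 7.93 and 7.86 against 7.92 and 7.76, so the groups overlapped. Its difference was 0.057 ± 0.068 (SE), and the faintest of its 3 probe sets stood at -0.15, with values of 5.61 and 5.62 against 5.69 and 5.83. Of the 7 Schwann cell or melanocyte markers measured, 4 lay under the median probe set in control cells and 3 above it.

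Among the membrane proteins and related cofactors, MCOLN1 had the smallest p of all 36 genes. It encodes mucolipin 1, the lysosomal calcium channel whose current activates TFEB. Its values were 7.70 and 7.76 in knockdown and 7.86 and 7.88 in control cells. Both knockdown arrays lay below both control arrays, at 90.9% of the control signal, and the difference of -0.14 ± 0.053 (SE) had an unadjusted p of 0.032 but did not pass over the table (limma, adjusted p = 0.62). It ranged from -0.16 to -0.11 with 1 array left out, and a single probe set represents the gene.

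The abundant membrane glycoproteins LAMP1 and LAMP2, which line the inner face of the lysosome, showed no shared direction. LAMP1 read 12.37 and 12.21 in knockdown and 12.22 and 12.29 in control cells. Knockdown replicate 1 was the highest array and knockdown replicate 2 the lowest, so the difference of 0.035 (95% confidence interval -0.12 to 0.19) lies inside the spread of the knockdown pair. LAMP2 read 9.79 and 9.49 against 9.74 and 9.60, again with the knockdown arrays at both ends. Its 4 probe sets ran from -0.19 to 0.10, and the lowest of them separated the groups, with 7.65 and 7.58 against 7.74 and 7.88 (unadjusted p = 0.019).

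SCARB2, which carries glucocerebrosidase to the lysosome, read 12.06 and 12.01 against 12.09 and 12.09. Both knockdown arrays were the lower ones. All 4 of its probe sets were below control, from -0.088 to -0.013, and the brightest stood at -0.053 (limma, adjusted p = 0.85). PSAP, the precursor of the saposins that help enzymes reach their lipids, read 11.91 and 11.79 against 11.88 and 11.88, a difference of -0.028. The class had a median of -0.031, which became 0.031 without knockdown replicate 2.

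Of the 13 hydrolases, 9 were below control and 4 above, and 0 passed (limma, adjusted p of at least 0.64; 0 at an unadjusted p under 0.05). HEXA, the alpha subunit of the hexosaminidase that trims GM2 ganglioside, was the lowest at its brightest probe set. It read 8.93 and 8.86 in knockdown and 9.03 and 9.01 in control cells, so the groups did not overlap, with a difference of -0.12 ± 0.054 (SE). Its 3 dimmer probe sets lay at -0.051, 0.0054 and 0.012. CTSF, a cysteine protease, was close behind, with 7.68 and 7.68 against 7.78 and 7.81. Its difference of -0.12 ± 0.051 (SE) was larger than the gap between the arrays of either group, and it stayed between -0.14 and -0.099 with 1 array left out.

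GAA, which digests glycogen in the lysosome and is deficient in Pompe disease, read 7.81 and 7.86 against 7.98 and 7.89. The knockdown arrays were again the lower ones, at 93.5% of the control signal (-0.097 ± 0.056, SE; limma, adjusted p = 0.71). GLA, the alpha-galactosidase A that is deficient in Fabry disease, had the highest positive difference of the 36, at 0.15 ± 0.092 (SE; limma, adjusted p = 0.71). That value came from a single array. GLA stood at 8.83 on knockdown replicate 1, while knockdown replicate 2 at 8.53 matched the control arrays at 8.53 and 8.52. Without knockdown replicate 2 the difference was 0.31, and without knockdown replicate 1 it was 0.0037. In such fits the lone array is assumed to vary like the control pair.

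Cathepsins, the lysosomal proteases, divided by gene. CTSB and CTSL, cysteine proteases, were above control on every knockdown array at their brightest probe sets. CTSB read 10.24 and 10.13 against 10.09 and 10.11, a difference of 0.087, and CTSL 9.55 and 9.49 against 9.43 and 9.48, a difference of 0.068. Of the 5 probe sets of CTSB, 3 were above control and 2 below, the lowest at -0.019 with overlapping arrays. CTSD, the main aspartic protease, read 6.80 and 7.03 against 6.95 and 7.04, with the arrays of each group further apart than the group means (-0.078 ± 0.080, SE). CTSA, which protects the sialidase NEU1 in a complex, did not overlap between groups but barely differed (-0.018), at 8.55 and 8.56 against 8.57 and 8.58. CTSZ, a carboxypeptidase, read 6.86 and 6.97 against 6.94 and 6.91 and overlapping groups.

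The other hydrolases stood close to control. NAGLU, which degrades heparan sulfate, read 7.31 and 7.33 against 7.40 and 7.33, a difference of -0.047 ± 0.054 (SE). ASAH1, acid ceramidase, was at -0.050, NEU1 at -0.029 and GUSB, beta-glucuronidase, at 0.013, each with overlapping arrays. The 5 probe sets of ASAH1 ran from -0.19 to 0.058.

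For the proton pump, ATP6V0D1, the subunit that joins the V0 rotor to the central stalk, had the smallest p of the pump genes, with 9.61 and 9.62 in knockdown and 9.74 and 9.71 in control cells. Both knockdown arrays were lower, by more than the gap within either pair, at -0.11 ± 0.051 (SE; limma, adjusted p = 0.65). ATP6V1A, the subunit that splits ATP, stood on the other side of control and read 11.34 and 11.18 against 11.17 and 11.13. Its difference was 0.11 ± 0.065 (SE; limma, adjusted p = 0.72), and was 0.031 without knockdown replicate 1.

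ATP6V1C1, which bridges the V1 and V0 sectors, showed how far probe sets of 1 gene can part. Its brightest probe set read 9.30 and 9.01 against 8.97 and 9.06, a difference of 0.14 ± 0.092 (SE) that overlapped and was carried by knockdown replicate 1. With only 1 knockdown array kept, it was 0.28 without knockdown replicate 2 and -0.0092 without knockdown replicate 1. A second probe set read 8.66 and 8.71 against 8.87 and 8.88, a difference of -0.19 ± 0.052 (SE) with an unadjusted p of 0.0077. These 2 readings of the gene therefore oppose each other. Of its 4 probe sets, 3 were below control, the dimmer ones at -0.0072 and -0.047.

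ATP6V0E1, a small V0 subunit, was the most densely covered gene, with 7 probe sets, and all of them were above control, from 0.012 to 0.25. The brightest differed by 0.058 ± 0.071 (SE) and overlapped, since knockdown replicate 2, at 10.87, was the lowest array. The probe set at 0.25 was dim, with 6.81 and 6.64 against 6.37 and 6.58 (unadjusted p = 0.020). These probe sets read the same 4 RNA samples and are not replicates. ATP6V1H, a regulatory subunit of V1, was at -0.038 on its brightest probe set and at 0.20 on a dim one that read 6.40 and 6.30 against 6.14 and 6.15 (unadjusted p = 0.0077).

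The remaining pump genes lay near control. ATP6V1B2, the brain form of the nucleotide-binding B subunit, was at -0.064, with 10.30 and 10.18 against 10.32 and 10.28. The accessory protein ATP6AP1 was at -0.049. ATP6AP2, also known as the prorenin receptor, was at -0.014, and its values of 11.63 and 11.58 against 11.64 and 11.60 overlapped. The median of the 8 pump genes was -0.026, with 5 lower and 3 higher, while their 22 probe sets had a median of 0.026, the opposite sign. The median over the 8 genes was also above 0, at 0.00067, after a further quantile normalization and, at 0.0080, without knockdown replicate 2.

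**Figure D2:**
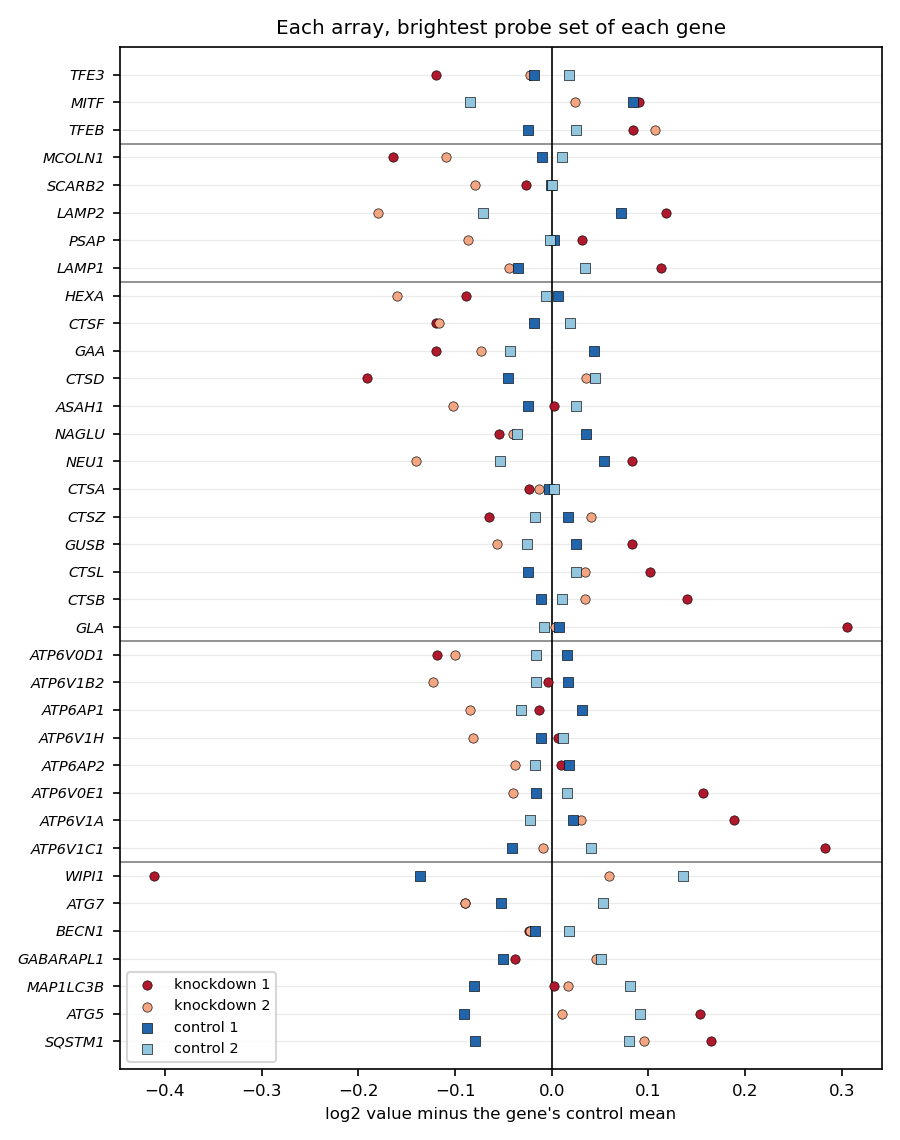
Log2 value of every array minus the control mean of the same gene (x axis), at the brightest probe set, with classes separated by lines. Circles are knockdown and squares control arrays; knockdown replicate 1 stands apart at WIPI1, GLA and ATP6V1C1, whereas both knockdown arrays lie left of both control arrays at MCOLN1, HEXA, CTSF, GAA and ATP6V0D1.

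Autophagy genes had a median of 0.0041 over 7 genes, 4 higher and 3 lower, with 0 past the threshold and 0 at an unadjusted p under 0.05 on their brightest probe sets (limma). The sign of that median was not stable: it was -0.0097 after median centring, -0.0074 with the mean of all probe sets, -0.023 without knockdown replicate 2 and -0.046 without control replicate 1, and it was 0.055 without control replicate 2. SQSTM1, or p62, is the receptor that brings ubiquitinated cargo to the autophagosome. It read 9.14 and 9.07 in knockdown and 8.89 and 9.05 in control cells. Knockdown arrays were the higher ones by a narrow margin, at 0.13 ± 0.067 (SE; limma, adjusted p = 0.68). A second, dimmer probe set differed by 0.16 (7.42 and 7.48 against 7.27 and 7.32; unadjusted p = 0.018), and the other 3 lay between -0.030 and 0.011.

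WIPI1, which binds the lipid that marks forming autophagosomes, had the largest difference of any member at its brightest probe set and also the largest spread. Its values were 8.73 and 9.20 in knockdown and 9.01 and 9.28 in control cells. Replicate 1 was the low array in both groups, by 0.47 in knockdown and 0.27 in control cells, and the difference of -0.18 ± 0.15 (SE; limma, adjusted p = 0.81) was smaller than either gap. Its other probe set gave 8.09 and 8.45 against 8.28 and 8.65, with the same order of arrays. With only 1 knockdown array kept, the difference was -0.41 without knockdown replicate 2 and 0.059 without knockdown replicate 1.

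A list of 14 genes of the integrated stress response, which also acts on WIPI1, SQSTM1 and MAP1LC3B, showed the same order of arrays as WIPI1. Relative to the control mean, its median was -0.33 on knockdown replicate 1, -0.10 on knockdown replicate 2, -0.12 on control replicate 1 and 0.12 on control replicate 2. Replicate 1 was below replicate 2 for all 14 genes in both groups. All 14 had a knockdown mean below control (median difference -0.21), beside 55.6% of all genes. At an unadjusted p under 0.05 there were 7 (50%), all lower, beside 5.57% lower over all genes, and 0 at an adjusted one (limma). SQSTM1 did not follow that order among the knockdown arrays, where replicate 1 was the higher one, and the part of the stress response in the values of WIPI1 was not tested.

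**Figure D3:**
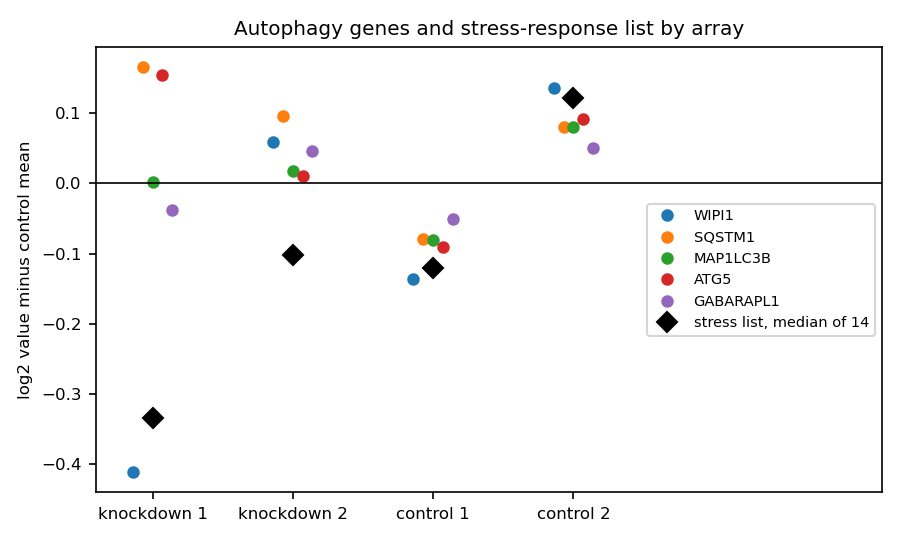
Log2 value minus the control mean (y axis) for 5 autophagy genes and the median of 14 integrated stress response genes, on each of the 4 arrays. WIPI1 stands at -0.41 on knockdown replicate 1, where the stress list stands at -0.33, while SQSTM1 and ATG5 are highest there.

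The ubiquitin-like proteins that coat the autophagosome stood at control level. MAP1LC3B, the LC3 protein used as the usual marker of autophagosomes, read 10.33 and 10.35 against 10.25 and 10.41, with both knockdown arrays between the control arrays (0.0098, 95% confidence interval -0.14 to 0.16). GABARAPL1, of the sister family, read 7.08 and 7.17 against 7.07 and 7.17 (0.0041). ATG7, the enzyme that activates both, read 7.40 and 7.40 against 7.44 and 7.54, a difference of -0.089 ± 0.057 (SE; limma, adjusted p = 0.74). The next brightest of its 4 probe sets read 7.33 and 7.17 against 7.47 and 7.38 (-0.18, unadjusted p = 0.031). ATG5, part of the complex that attaches LC3 to membranes, was at 0.082 with overlapping arrays, and BECN1, a subunit of the lipid kinase that starts autophagosomes, was at -0.023.

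Probe sets of the same gene often disagreed. Of the 25 genes with several probe sets, 8 had them all on the same side of control and 17 had them on both sides. Of the 9 probe sets at an unadjusted p under 0.05, only that of MCOLN1 was the brightest of its gene. The 4 higher ones belonged to ATP6V0E1, ATP6V1H, TFE3 and SQSTM1, and the other lower ones to LAMP2, ATP6V1C1, ATG7 and MITF.

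**Figure D4:**
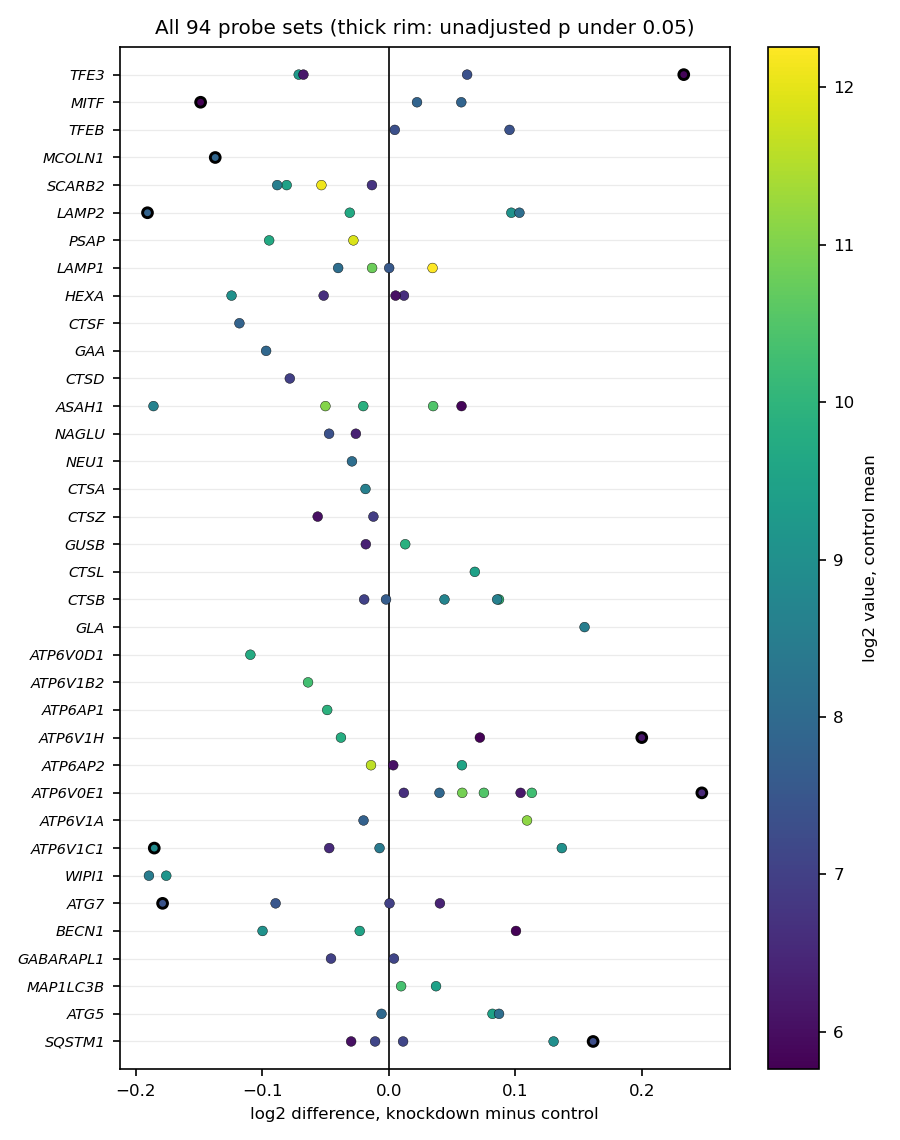
Differences (x axis, log2, knockdown minus control) of all 94 probe sets by gene, coloured by the control mean; a thick rim marks the 9 with an unadjusted p under 0.05. Many of the rimmed points are dim, and ATP6V1C1 has probe sets from -0.19 to 0.14.

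TFEB, TFE3 and MITF bind a palindrome called an E-box, CACGTG, and the E-box with GT before it and AC after it is a form of the CLEAR element of lysosomal promoters. Both motifs read the same on either strand, and the longer contains the shorter. RefSeq promoter windows of 300 bases (250 before to 50 after a gene's start, GRCh38.p14) were matched by symbol for 25 of the 36 genes. The E-box was found for 8 of them, in 8 of their 32 windows (25%), beside 7.26% of all 35116 windows. Counted by gene over the whole array, 1672 genes had an E-box in a window and 13712 had a window without. The longer motif was found for 2 members, GAA and MCOLN1, and for 100 genes of the whole array. By window, 0.353% of all windows held it. A match is only a description of the letters in the window.

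The E-box nearest to the start is shown for each of the 8 genes, since these are the genes grouped in the comparison that follows. Capitals mark the E-box, each line runs 5′ to 3′ along the gene's strand, and GAA and MCOLN1 show the longer motif.
MCOLN1 (chr19:7522598-7522627, + strand): gggctaccgggtCACGTGaccgaggcacag
GAA (chr17:80101538-80101567, + strand): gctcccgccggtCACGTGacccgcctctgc
CTSF (chr11:66568640-66568669, - strand): ccctgcgcgcccCACGTGcctcctgtaaac
ATP6V0D1 (chr16:67481199-67481228, - strand): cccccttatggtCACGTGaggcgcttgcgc
CTSD (chr11:1763957-1763986, - strand): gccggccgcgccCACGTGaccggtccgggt
NEU1 (chr6:31862930-31862959, - strand): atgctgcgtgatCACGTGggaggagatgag
CTSA (chr20:45891298-45891327, + strand): ggcgccggagttCACGTGactcgtacacat
LAMP1 (chr13:113297226-113297255, + strand): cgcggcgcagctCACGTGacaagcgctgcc

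LAMP1 held 6 E-boxes in its window, the most of any member, and the printed one spans the annotated start. Members with an E-box sat lower than those without. Of the 8, 7 were below control, with a median of -0.088, and the groups' arrays did not overlap, with knockdown lower, for 5 of them, beside 496 of the 1672 genes of the whole array with an E-box (29.7%). Knockdown replicate 1 gave a median of -0.12 for them, and knockdown replicate 2 gave -0.087. The exception was LAMP1, at 0.035. LAMP1 was also the only one of the 8 with more than 1 probe set. The signs of LAMP1, CTSD and NEU1 changed in fits with 1 array left out. Of the 17 members with a window and no E-box, 8 were below control, with a median of 0.0041. The arrays did not overlap for 7 of these, with knockdown lower for 4 (23.5%) and higher for 3. Among the 13712 genes of the whole array with a window and no E-box, 3345 (24.4%) were lower without overlap and 1918 higher. Over all genes the same split gave -0.020 for 1672 genes with an E-box (61.8% below control) and -0.0098 for 13712 without (55.9%). The classes were not evenly split, since the 7 autophagy members and the 3 regulators all had a window without an E-box. The part of class in the difference was not tested. The grouping by E-box was made after the members' values had been seen, so it carries no test.

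**Figure D5:**
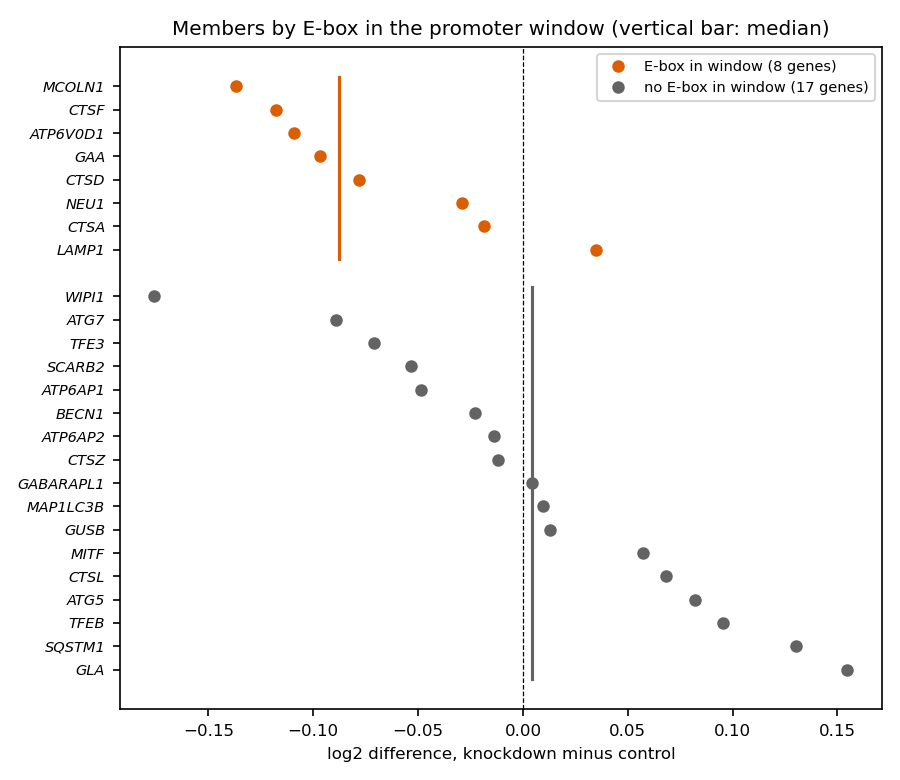
Log2 differences (x axis, knockdown minus control) of the 25 members with a promoter window, by whether the window holds an E-box; vertical bars are medians, at -0.088 for 8 genes and 0.0041 for 17 genes. LAMP1 is the only member with an E-box to the right of 0.

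Other genes of the pathway were taken from a list that left out the members. More of them were below control: 67.6%, beside 61.1% of the 36 members and 55.6% of all genes. Of 117 listed, 105 were measured, 0 passed (limma, adjusted p under 0.05), and 7 (6.67%) were at an unadjusted p under 0.05, all lower, beside 7.96% of all genes. Among 36 further lysosomal genes, 22 (61.1%) were below control with a median of -0.017. Only 1 (2.78%) was at an unadjusted p under 0.05 (limma), beside 7.96% of all genes. The arrays did not overlap for 11 (30.6%), 9 lower and 2 higher. Over all genes it was 38.5%, 24.2% lower and 14.3% higher. The smallest p were those of ARSA (-0.14), a sulfatase of myelin lipids, NPC1 (-0.12), which exports cholesterol, IGF2R (-0.13), the mannose 6-phosphate receptor that delivers enzymes, and GALNS (-0.12), a sulfatase of keratan sulfate.

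Among 17 further pump genes, 13 were below control with a median of -0.035. ATP6V1E2 (-0.14) and ATP6V1G2 (-0.075), which encode V1 subunits, and DMXL2 (-0.083), which aids assembly of the pump, were lower without overlap, and NCOA7 (0.11) was above with overlap. These genes had the smallest p of the 17, and none passed. Over the 17 genes the arrays did not overlap for 8 (47.1%), all lower, beside 38.5% of all genes (24.2% lower and 14.3% higher).

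Autophagy and its control had 52 further genes, 36 of them (69.2%) below control. Their median was -0.025, where that of the 7 autophagy members was 0.0041. At an unadjusted p under 0.05, 6 of the 52 (11.5%) were lower and 0 were higher, beside 5.57% lower and 2.39% higher over all genes. ATG9A, the lipid scramblase of the growing membrane, read 7.62 and 7.55 in knockdown and 7.80 and 7.74 in control cells (-0.19 ± 0.055, SE). ATG4D, a protease of the LC3 family, read 7.27 and 7.35 against 7.51 and 7.49 (-0.18 ± 0.054, SE). ULK1, the kinase that starts autophagy, read 7.22 and 7.23 against 7.37 and 7.38 (-0.14 ± 0.051, SE). ATG4B, the main LC3 protease, read 8.47 and 8.59 against 8.81 and 8.65 (-0.20 ± 0.072, SE). These 4 genes had the smallest p of the list. The arrays of the groups did not overlap for any of them, and 0 passed over the table (limma, adjusted p of at least 0.60). Over the 52 genes the arrays did not overlap for 20 (38.5%), beside 38.5% of all genes. Of the 20, 16 were lower (24.2% of all genes were) and 4 higher (14.3%).

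The arrays of a group also differed from each other. The median absolute gap between the knockdown arrays was 0.086 for the 36 genes and 0.063 for all genes, and between the control arrays 0.050 and 0.057. Knockdown replicate 1 exceeded knockdown replicate 2 for 22 of the 36 members, where the share over all genes was 50.2%. It did so for 7 of the 8 pump genes and for 4 of the 5 membrane proteins and cofactors. In the other classes it did so for 7 of the 13 hydrolases, 3 of the 7 autophagy genes and 1 of the 3 regulators.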

How the data were processed

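The deposited values are log2 expression values per probe set and array. The submitters' processing notes name RMA (background correction, quantile normalization and probe summary) and R 3.0.1, without settings; per the labels' protocols, biotin-labelled RNA was made from 100 ng of total RNA. RMA compresses changes near background, and signals of different probe sets do not rank transcripts. The 62 AFFX controls were left out. Of 54613 probe sets, 41091 had 1 annotated gene, 1801 several and 11721 were not listed in the platform annotation. The groups were set against each other with limma 3.58.1 in R 4.3.3 (lmFit and eBayes on all 4 arrays, no covariate, two-sided). The fit was tested on simulated data with independent values and shifts larger than any member difference. That run does not show how the test performs at the sizes seen here. The members and lists were chosen with earlier results of these data known. Named with array values were the 10 members with the smallest p, the 4 brightest and 4 dimmest in control cells, the regulators with MCOLN1 and SQSTM1, any with a difference of at least 0.3, and 4 genes per further list; members outside this rule, such as ATP6V1C1, ATP6V1H and WIPI1, were added after their values were seen. Alternatives were other normalizations, filters, probe set rules, a replicate block and each array left out. Medians of lists carry no test. Figures were drawn with matplotlib 3.10.9 under Python 3.11.15. The number of arrays limits the precision, and scanner files were not used here.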

Additional observations from a re-analysis of the deposited data

How the results depend on the processing

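Only TSPAN8 was called over the whole table; the count was 0 with the replicate block, 4278 without adjustment, and 1 to 1026 with 1 array left out (25 without knockdown replicate 1, 1026 without knockdown replicate 2). Among the 94 member probe sets it was 9 without adjustment, 0 with the replicate block and 0 to 5 with 1 array left out, the 5 without knockdown replicate 2; these fits lend the single remaining array the spread of the intact group. The labels do not say whether equal replicate numbers mark a shared day or culture. The deviations of same-numbered arrays correlated at 0.051 over all probe sets, although replicate 1 was below replicate 2 in both groups for WIPI1 and all 14 stress response genes, so a pairing is not settled. With the replicate block TSPAN8 stayed at -1.27 with an adjusted p of 0.16 (limma), and no member changed sign. The median of the 36 genes ran from -0.039 to 0.0022 with 1 array left out. Outside those fits, 22 of 242 member values changed sign, with 0 called; the cause was not tested. Normalizing again by quantiles gave CTSA (0.010), ATP6AP2 (0.0068), GABARAPL1 (-0.00019) and BECN1 (0.010). Median centring gave GUSB (-0.00075), GABARAPL1 (-0.0097) and MAP1LC3B (-0.0040). The mean of all probe sets gave LAMP1 (-0.0045), GUSB (-0.0025), ATP6V1H (0.078), ATP6V1C1 (-0.026), ATP6AP2 (0.016), TFE3 (0.039), MITF (-0.023) and GABARAPL1 (-0.021). Leaving out probe sets that can match several transcripts (26 members remained measurable) gave LAMP1 (-0.013), HEXA (0.012), ASAH1 (0.035), ATP6V1H (0.072), ATP6V1C1 (-0.19), ATG7 (0.00063) and BECN1 (0.10).

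With 1 array left out, 19 members kept their sign and 17 did not: ASAH1 (-0.10 to 0.0019), ATG5 (-0.0089 to 0.17), ATP6AP2 (-0.038 to 0.0097), ATP6V0E1 (-0.041 to 0.16), ATP6V1C1 (-0.0092 to 0.28), ATP6V1H (-0.082 to 0.0063), CTSD (-0.19 to 0.035), CTSZ (-0.065 to 0.041), GABARAPL1 (-0.046 to 0.055), GUSB (-0.057 to 0.083), LAMP1 (-0.044 to 0.11), LAMP2 (-0.18 to 0.12), MAP1LC3B (-0.071 to 0.091), MITF (-0.027 to 0.14), NEU1 (-0.14 to 0.083), PSAP (-0.087 to 0.031) and WIPI1 (-0.41 to 0.059).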
